A study of Homo sapiens with 4 samples.

Results

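The genes described here encode the nuclear part of respiratory complex I, and they were taken as every protein-coding nuclear gene in the count table whose symbol starts with NDUF. There were 48 such genes among 58735 gene identifiers, of which 19951 are protein-coding. They comprise 37 subunits of the complex, 8 assembly factors named NDUFAF and 3 other genes. The others are NDUFA4, now placed in complex IV, its paralog NDUFA4L2, and the readthrough gene NDUFC2-KCTD14. Of the 37 subunits, 7 are core subunits and 30 are accessory. The members lie on 22 chromosomes, with 6 on chromosome 19, 5 on chromosome 11 and 2 on X. A further 67 identifiers with an NDUF symbol are not protein-coding, 63 of them pseudogenes, and were not taken as members.

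The study measured RNA in A549, an established cell line from a human lung adenocarcinoma, whose cells had been stained and sorted by their surface ICAM1, an adhesion molecule that leukocytes bind. Its groups were an ICAM1-high subset and an ICAM1-low subset, with 2 libraries each. All libraries carry a wild-type genotype label, and both subsets came from cells grown in the same serum-containing medium and stained with the same antibody, so the labels separate them by the sort alone. Whether each subset's 2 libraries stem from different cultures or different sorts is not stated in the labels, so p-values reflect the scatter among these 4 libraries, and that scatter may be technical.

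Complex I, NADH:ubiquinone oxidoreductase, passes electrons from NADH to ubiquinone and pumps protons across the inner mitochondrial membrane. Its matrix arm holds the N module, which oxidises NADH, and the Q module, which reduces ubiquinone, while its membrane arm has a proximal and a distal part. The core subunits carry the redox centres and the pump and are shared with bacteria, whereas accessory subunits surround them, and the membrane-embedded core subunits are encoded by mitochondrial DNA. Assembly factors build the modules and join them without staying in the finished enzyme.

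The ICAM1-high libraries held 17638647 and 17271825 counts, against 16665362 and 16272591 for ICAM1-low, and the members took 37299 and 36970 of these counts, against 30822 and 29674. Levels below are counts per 1e6 after TMM scaling (CPM), and fold changes are ICAM1-high over ICAM1-low on the log2 scale. The sorted marker ICAM1 had 115.5 and 110.4 CPM in ICAM1-high, against 4.61 and 4.89 CPM in ICAM1-low, and its log2 fold change was 4.57 ± 0.10 (SE; quasi-likelihood test of edgeR, adjusted p = 4.38e-50). At CDKN2A, a gene that A549 is known to lack, the libraries went against the cell line label: it had 1009 and 1214 counts in the libraries labelled ICAM1-high, against 0 and 0 in those labelled ICAM1-low. Its neighbours did likewise, CDKN2B with 174 and 182 counts against 0 and 0, and MTAP with 459 and 463 counts against 1 and 8. Both ICAM1-high libraries carried these genes, so no comparison could be made without them, and every difference below is between libraries that also differ in this way. Of fibroblast markers, 4 of the 6 tested were higher in ICAM1-high. The 10 listed genes summed to 32.6 and 36.6 CPM there, against 5.24 and 6.52 CPM in ICAM1-low. Most of this was COL1A1, which averaged 28.55 CPM in ICAM1-high, against 4.07 CPM in ICAM1-low. In ICAM1-high 7 of the 10 averaged under 1 CPM, and POSTN was at 0 in all libraries. The 8 endothelial markers summed to 8.42 and 8.33 CPM in ICAM1-high, against 0.959 and 0.978 CPM in ICAM1-low. Only 3 of them had enough counts to be tested, all 3 higher, and 5 of the 8 averaged under 1 CPM in ICAM1-high. Among those tested, ERG averaged 2.41 ± 0.60 CPM in ICAM1-high, against 0 in both ICAM1-low libraries. Leukocyte markers summed to 19.05 and 19.06 CPM, against 9.59 and 9.78 CPM, nearly all of it CD14, with PTPRC and CD3E at 0. The lung epithelial and A549 list summed to 11553 and 11283 CPM in ICAM1-high, against 16696 and 16179 CPM in ICAM1-low. Of its 6 tested genes, 3 were higher in ICAM1-high and 3 lower. Its keratin genes were higher, KRT8 by 1.253 on the log2 scale, while ALDH1A1, an aldehyde dehydrogenase abundant in A549, was lower by a log2 fold change of -1.06. The lung lineage genes NKX2-1 and SFTPB had at most 0.268 CPM in any library. The part of these differences in the results below was not tested.

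Complex I genes differed little in size and in both directions between the subsets. Of the 37 subunits, 12 rose and 5 fell in ICAM1-high, and 20 were not called at an adjusted p under 0.05. Over all 16250 genes tested, 30.4% were called higher and 29.4% lower, 59.7% in all, so the 32.4% of subunits called higher lie near that background, beside 13.5% called lower. Among protein-coding genes of at least 10 CPM the shares were 32.1% and 40.1%. The subunits called lower numbered 3 without ICAM1-low replicate 1. The subunits' median fold change was 0.04 on the log2 scale, beside 0.01 over all genes tested. No member differed by 2-fold or more, beside 10.8% of genes called higher and 4.71% called lower at that size, and 35 of the 37 subunits differed by less than 1.5-fold. The libraries of the subsets did not overlap for 26 subunits, or 70.3%, beside 78.3% of all genes tested. In bulk RNA, a lower level in fewer cells and a lower level per cell cannot be told apart. Summed over the 37 subunits, the level was 1747 and 1769 CPM in ICAM1-high, against 1709 and 1670 CPM in ICAM1-low.

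**Figure D1:**
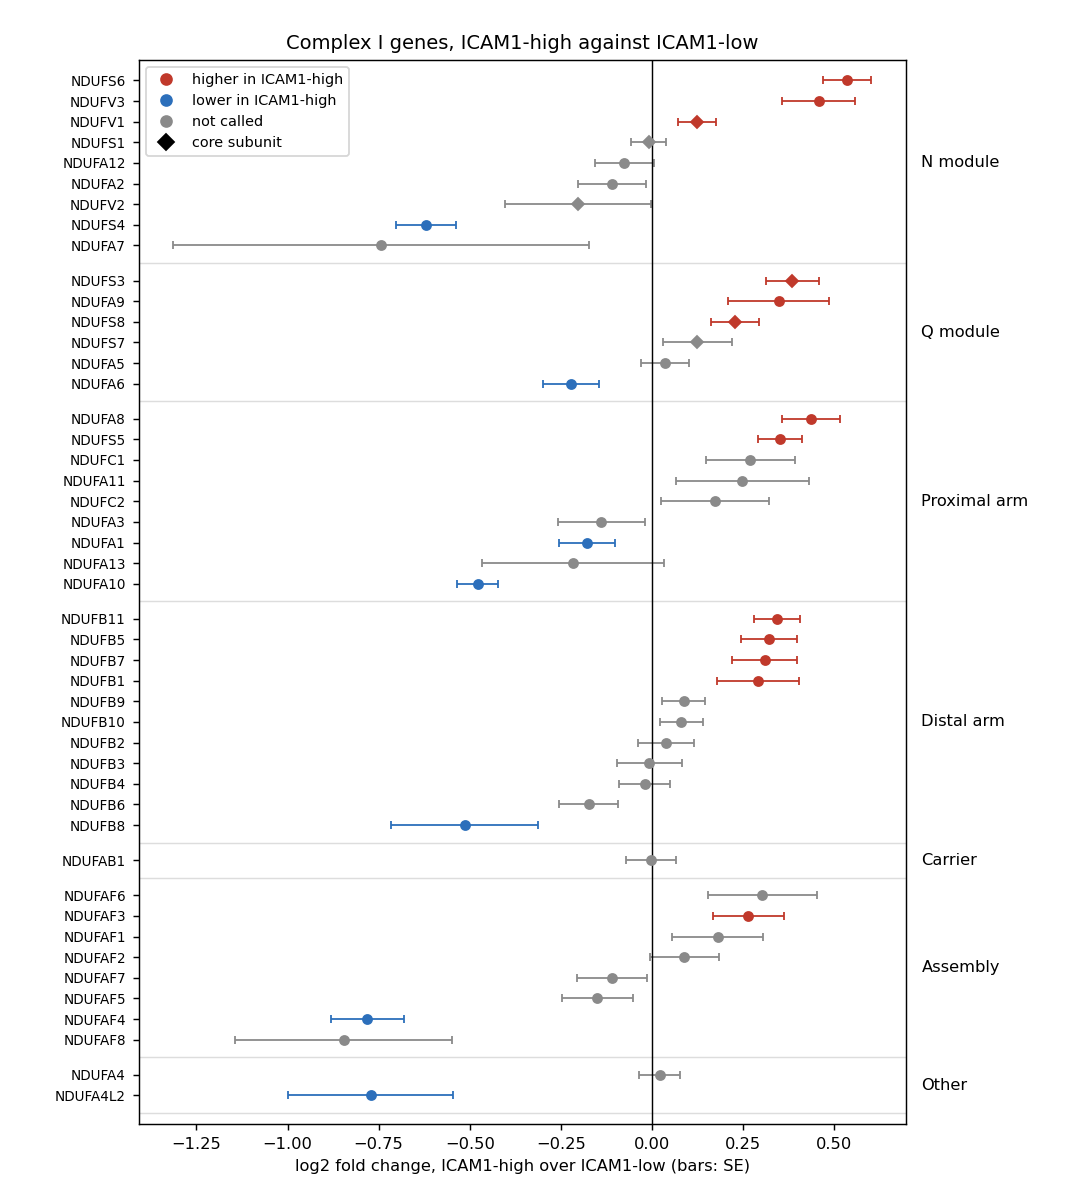
The horizontal axis is the log2 fold change of ICAM1-high over ICAM1-low for 46 of the 47 members tested, grouped by module, with the standard error as bars and diamonds for core subunits. Rises reach 0.54 in NDUFS6, falls among the called members reach -0.78 in NDUFAF4, and each module of the matrix and membrane arms holds called members in both directions.

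In the N module, which takes electrons from NADH, NDUFS6 and NDUFS4 moved apart, and both are accessory subunits. NDUFS6 (chr5:1801400-1816605, GRCh38), a zinc-binding subunit added late in assembly, had 70.0 and 74.4 CPM in ICAM1-high, against 48.5 and 51.1 CPM in ICAM1-low. It rose by 0.54 ± 0.07 (SE; edgeR quasi-likelihood test, adjusted p = 1.1e-10). The ICAM1-high libraries both lay above the ICAM1-low libraries. NDUFS4 (chr5:53560633-53683340), whose loss causes Leigh syndrome in humans, had 29.5 and 26.2 CPM in ICAM1-high, against 44.4 and 41.3 CPM in ICAM1-low. It fell by 0.62 ± 0.08 (adjusted p = 1.15e-09), again with no overlap between the libraries. These genes lie on opposite arms of chromosome 5.

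Of the N module's other members, NDUFV3, an accessory subunit next to the NADH site, averaged 25.2 ± 1.6 CPM in ICAM1-high, against 18.4 ± 0.44 CPM in ICAM1-low (SD, n = 2 each) and rose by 0.46 ± 0.10. The core subunit NDUFV1, which binds the flavin that accepts electrons from NADH, had 147 and 162 CPM in ICAM1-high, against 139 and 145 CPM in ICAM1-low. Its rise was 0.12 ± 0.05 (adjusted p = 0.0328), the libraries lay close together, and the call was lost when ICAM1-high replicate 2, ICAM1-low replicate 1 or ICAM1-low replicate 2 was left out. NDUFS1, the largest core subunit and the carrier of several iron-sulfur clusters, had 166 and 162 CPM in ICAM1-high, against 162 and 169 CPM in ICAM1-low. Its libraries overlapped, and its log2 fold change of -0.01 had a 95% interval of -0.11 to 0.09. NDUFV2, a core subunit with an iron-sulfur cluster of its own, had 4.61 and 4.41 CPM in ICAM1-high, against 5.12 and 5.28 CPM in ICAM1-low, and was not called (log2 fold change -0.20, interval -0.60 to 0.20). NDUFA2, NDUFA7 and NDUFA12 were not called either, and NDUFA7 had only 2 and 15 counts in ICAM1-high, against 13 and 11 counts in ICAM1-low. In all, 3 of the 9 N module genes rose and 1 fell, with a median log2 fold change of -0.08, and without ICAM1-high replicate 2 the counts were 2 and 2. That median was -0.03 without ICAM1-high replicate 1, -0.05 without ICAM1-low replicate 1 and -0.12 without ICAM1-low replicate 2.

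The Q module had 3 genes that rose and 1 that fell among 7. NDUFS3 (chr11:47565336-47584562), a core subunit at the base of the quinone-binding region, had 51.3 and 54.0 CPM in ICAM1-high, against 41.6 and 39.0 CPM in ICAM1-low. Its rise of 0.39 ± 0.07 (adjusted p = 5.35e-06) was the largest among the core subunits. NDUFS8, a core subunit with a pair of iron-sulfur clusters on the path to ubiquinone, had 65.8 and 73.7 CPM in ICAM1-high, against 57.1 and 62.0 CPM in ICAM1-low, and rose by 0.23 ± 0.07 (adjusted p = 0.00217). Its libraries did not overlap, but the call was lost without ICAM1-high replicate 2 or ICAM1-low replicate 1, and also with the GC trend of transcripts removed, at 0.09 (adjusted p = 0.242).

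NDUFS7, a core subunit with an iron-sulfur cluster next to the ubiquinone site, was not called. It had 24.7 and 24.9 CPM in ICAM1-high, against 23.5 and 22.04 CPM in ICAM1-low, with a log2 fold change of 0.12 and an interval of -0.07 to 0.31. The accessory subunit NDUFA6, which anchors an acyl carrier protein to the matrix arm, had 40.8 and 38.2 CPM in ICAM1-high, against 49.5 and 42.6 CPM in ICAM1-low, and fell by 0.22 ± 0.08 (adjusted p = 0.0109), a call lost without ICAM1-high replicate 2 or ICAM1-low replicate 1. NDUFA9 rose by 0.35 ± 0.14 (adjusted p = 0.026), a call lost when any single library was left out, and NDUFA5 was not called. Without ICAM1-high replicate 2, or without ICAM1-low replicate 1, 1 Q module gene was called higher and 0 lower. Together, 3 of the 7 nuclear core subunits rose and 0 fell, and the count of rises was 1 without ICAM1-high replicate 2 and 1 without ICAM1-low replicate 1. NDUFAB1, the acyl carrier protein itself, averaged 55.2 ± 1.3 CPM in ICAM1-high, against 55.2 ± 3.6 CPM in ICAM1-low.

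**Figure D2:**
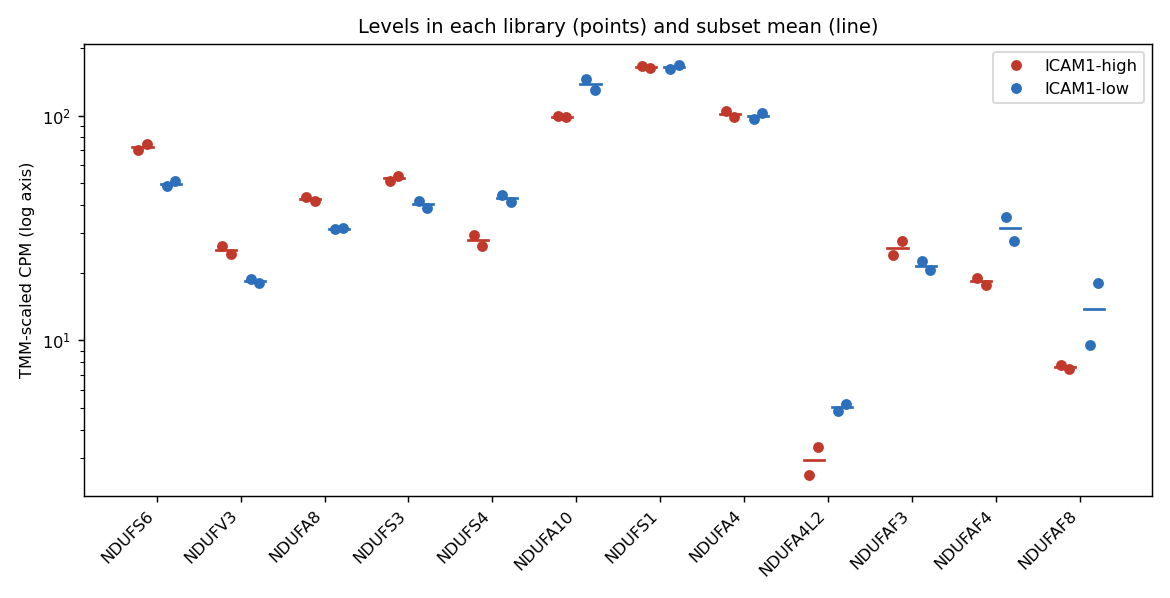
Each point is a library and each line a subset mean, in TMM-scaled CPM on a log axis, for 12 members, ICAM1-high in red left of ICAM1-low in blue. The subsets stand apart for NDUFS6, NDUFA8, NDUFS4, NDUFA10 and NDUFAF4, they overlap for NDUFS1 and NDUFA4, and the ICAM1-low libraries of NDUFAF8 differ widely, at 9.53 and 17.9 CPM.

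In the proximal membrane arm 2 genes rose and 2 fell among 9. NDUFA8 (chr9:122144058-122159819), a cysteine-rich subunit on the intermembrane space side, had 43.6 and 41.6 CPM in ICAM1-high, against 31.3 and 31.6 CPM in ICAM1-low. It rose by 0.44 ± 0.08 (adjusted p = 2.47e-06). NDUFS5, which shares its twin cysteine motif and its side of the membrane, averaged 91.0 ± 4.8 CPM in ICAM1-high, against 71.3 ± 3.9 CPM in ICAM1-low and rose by 0.35 ± 0.06. NDUFA10 (chr2:239892450-240025402), a matrix-facing subunit related to nucleoside kinases, had 99.9 and 98.0 CPM in ICAM1-high, against 146 and 130.1 CPM in ICAM1-low. It fell by 0.48 ± 0.05 (adjusted p = 9.71e-12), the smallest adjusted p among the members. NDUFA1, a small X-linked subunit, fell by 0.18 ± 0.08 (adjusted p = 0.0391), and that call was lost when any library other than ICAM1-high replicate 2 was left out. NDUFC1 had 17.1 and 15.2 CPM in ICAM1-high, against 15.2 and 11.7 CPM in ICAM1-low, and just missed the threshold (log2 fold change 0.27, adjusted p = 0.052). NDUFA3, NDUFA11, NDUFA13 and NDUFC2 were not called. Without any single library other than ICAM1-high replicate 2, 1 gene of this arm was called lower.

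The distal membrane arm, where the proton channels farthest from the redox centres lie, had 4 genes that rose and 1 that fell among 11. NDUFB11, an X-linked subunit, had 75.1 and 79.9 CPM in ICAM1-high, against 63.3 and 58.9 CPM in ICAM1-low, and rose by 0.34 ± 0.06 (adjusted p = 3.35e-06). NDUFB5 rose by 0.32 ± 0.08, NDUFB7, which also has the twin cysteine motif, by 0.31 ± 0.09, and NDUFB1 by 0.29 ± 0.11, a call that was lost when any single library other than ICAM1-high replicate 1 was left out. With the trend on transcript GC content removed, NDUFB7 was at 0.10 (adjusted p = 0.34) and no longer called. NDUFB8, whose protein is widely used as a marker of assembled complex I, had 3.92 and 4.08 CPM in ICAM1-high, against 5.44 and 5.998 CPM in ICAM1-low. It fell by 0.51 ± 0.20 (adjusted p = 0.0242), on 73 and 75 counts against 85 and 92 counts, and the call was lost when any library other than ICAM1-low replicate 1 was left out. NDUFB2, NDUFB3, NDUFB4, NDUFB6, NDUFB9 and NDUFB10 were not called, with log2 fold changes between -0.17 in NDUFB6 and 0.09 in NDUFB9. The medians of the proximal and distal arms were 0.17 and 0.08, and that of the proximal arm was -0.02 without ICAM1-low replicate 2. The distal median was 0.03 without ICAM1-high replicate 2, when 0 distal genes were called lower, and 0.04 without ICAM1-low replicate 1. With library size as the only scaling 4 N module genes were higher and 1 lower, and 6 and 0 in the Q module. The counts were 5 and 1 in the proximal arm and 7 and 0 in the distal arm. Of all 16250 genes tested, 6735 were higher and 3124 lower with that scaling.

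Among the 8 NDUFAF assembly factors 1 rose, 1 fell and 6 were not called, and the median log2 fold change was -0.01. The factors called lower numbered 2 without ICAM1-high replicate 1, ICAM1-high replicate 2 or ICAM1-low replicate 1, NDUFAF8 being added, and 0 were called higher without either replicate 2 library. NDUFAF4 (chr6:96889313-96897881), which works with NDUFAF3 on the Q module intermediate, had 19.05 and 17.6 CPM in ICAM1-high, against 35.3 and 27.6 CPM in ICAM1-low. It fell by 0.78 ± 0.10 (edgeR quasi-likelihood test, adjusted p = 7.04e-10), the largest called change among the members. NDUFAF3 had 24.0 and 27.7 CPM in ICAM1-high, against 22.4 and 20.6 CPM in ICAM1-low, and rose by 0.26 ± 0.10 (adjusted p = 0.0161). These partners thus had opposite signs, though the difference between them was not tested, and the call of NDUFAF3 was lost without either replicate 2 library and, at 0.07, with the GC trend removed (adjusted p = 0.582).

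NDUFAF8, a partner of NDUFAF5, had 7.78 and 7.46 CPM in ICAM1-high, against 9.53 and 17.9 CPM in ICAM1-low, and missed the threshold with a log2 fold change of -0.85 ± 0.30 (adjusted p = 0.0504). ICAM1-low replicate 2 set most of that value: without it the log2 fold change was -0.33 (adjusted p = 0.131), and without ICAM1-low replicate 1 it was -1.24 (adjusted p = 2.3e-13). NDUFAF5, which hydroxylates NDUFS7, had 21.5 and 21.0 CPM in ICAM1-high, against 24.5 and 22.6 CPM in ICAM1-low (log2 fold change -0.15). NDUFAF7, a mitochondrial methyltransferase, had 24.6 and 21.1 CPM, against 25.2 and 24.1 CPM (log2 fold change -0.11). Neither was called.

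NDUFAF1, a scaffold for the membrane arm, had 13.7 and 13.8 CPM in ICAM1-high, against 11.5 and 12.8 CPM in ICAM1-low (log2 fold change 0.18). NDUFAF2, which joins late intermediates, had 27.0 and 23.6 CPM, against 24.4 and 23.2 CPM (log2 fold change 0.09). NDUFAF6, an early factor, had 9.44 and 10.6 CPM, against 7.93 and 8.28 CPM (log2 fold change 0.30, adjusted p = 0.0735). None of these was called, and the libraries of NDUFAF2 overlapped between the subsets.

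Of the remaining members, NDUFA4 had 104 and 98.1 CPM in ICAM1-high, against 96.8 and 103 CPM in ICAM1-low, with overlapping libraries and a log2 fold change of 0.02. NDUFA4L2, known as a hypoxia-induced gene, had 2.52 and 3.38 CPM in ICAM1-high, against 4.86 and 5.22 CPM in ICAM1-low, and fell by 0.77 ± 0.23 (adjusted p = 0.00256). That call was lost without ICAM1-high replicate 1 (log2 fold change -0.58, adjusted p = 0.0558). NDUFC2-KCTD14 had 0 counts in all 4 libraries and was not tested.

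Levels of different genes were compared per kilobase of exon, over all annotated exons of a gene merged. That length is not the length of a single mRNA. It was 12268 bases in NDUFS1, with 2235 coding bases, and 7533 bases in NDUFS7, with 937 coding bases. The levels and ranks below depend on it. NDUFS5 was the highest subunit in both subsets, with 166 CPM per kb in ICAM1-high and 130.04 CPM per kb in ICAM1-low, followed by NDUFB10 with 76.0 and 71.9 CPM per kb. For 7 subunits at least 10% of the coding bases also belong to another gene on the same strand in the annotation. They rank 30 and 32 to 37 of the 37 in ICAM1-high, and are NDUFC2, NDUFB8, NDUFV2, NDUFA11, NDUFA9, NDUFA13 and NDUFA7. Their median level was 1.36 CPM per kb in ICAM1-high and 1.28 CPM per kb in ICAM1-low, against 21.9 and 23.6 CPM per kb for the other 30 subunits. NDUFS7 shares no coding bases in that way, but 48.5% of them also lie in genes on the opposite strand. It ranked 31 in ICAM1-high, at 3.29 CPM per kb, and had 3.02 CPM per kb in ICAM1-low. The shared part was 85.2% of coding bases in NDUFB8, 84.7% in NDUFV2 and 78.3% in NDUFA7, and the sources used here do not say how reads in shared bases were counted. The part of overlap in these low levels was not tested. Of the 26 subunits with under 10% of coding bases in another gene on either strand, 11 (42.3%) rose and 4 (15.4%) fell. Of the other 11, 1 (9.09%) rose and 1 (9.09%) fell, beside 30.4% and 29.4% of all genes tested. Those 11 include NDUFA7, NDUFA13, NDUFV2 and NDUFB8, which had at most 92 counts in any library and so were harder to call. The 10% limit covers coding bases only. Of all exon bases, 44.9% in NDUFB11 overlap the gene RBM10 and 44.5% in NDUFA1 overlap RNF113A, on the opposite strand. Both subunits are among the 26. The part of overlap in these calls was not tested. Pseudogene copies were counted at up to 23.2% of the member's own counts, in NDUFV2, with 8.31% in NDUFB8 and 2.26% in NDUFA5, so the values of NDUFV2 and NDUFB8 are uncertain on this ground as well.

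**Figure D3:**
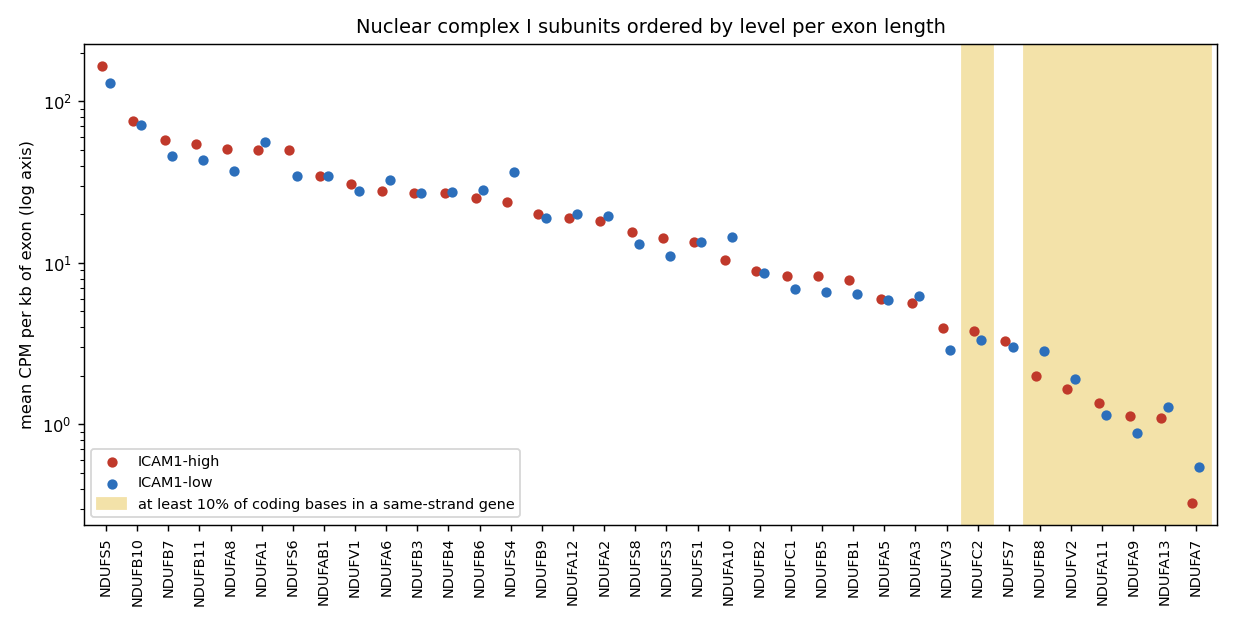
Mean level per kilobase of exon (log axis) of 36 of the 37 nuclear subunits, ordered by the ICAM1-high mean, with ICAM1-high in red left of ICAM1-low in blue. Shading marks the 7 subunits that share at least 10% of their coding bases with a same-strand gene, which run from 3.77 down to 0.327 CPM per kb in ICAM1-high.

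Promoter sequences of 40 of the 48 members were available from RefSeq (GRCh38.p14), each reaching from 250 bases before to 50 bases after the annotated start. The promoter sequences were searched on both strands for letters bound by factors known to act on respiratory genes. The NRF1 letters GCGCNTGCG were found in 25% of the 40 promoters, beside 10.95% of 15842 protein-coding promoters of the same length. With a further C at the 3′ end, the form searched first, they were in 17.5% beside 8.57%, and the shorter form was adopted after that result was known. The YY1 letters AAGATGGCG were in 12.5%, beside 2.74%. The ETS letters CCGGAAG, bound by GABP, were in 15% beside 14.2%, the NF-Y letters CCAAT in 27.5% beside 36.4%, and the ERR letters TCAAGGTCA in 0 of 40 beside 0.24%. A match is a description of the letters only. Of the subunits with a promoter, the shorter NRF1 letters occurred in 3 of 10 that rose, 1 of 5 that fell and 5 of 17 not called, the longer in 2, 0 and 4 of them, and YY1 letters in 1, 2 and 2. The 4 promoters below are examples, all holding a match, from members called higher (NDUFS3 and NDUFA8) or lower (NDUFS4 and NDUFAF4). NDUFS6 and NDUFV3, which rose more, are not shown. Nor is NDUFA10, which fell and had none of the letters searched. Capitals mark the matches. ETS letters are in NDUFS3 (chr11:47578824-47579123, plus strand) and NDUFAF4 (chr6:96897842-96898141, minus strand). Overlapping NRF1 letters are in NDUFA8 (chr9:122159730-122160029, minus strand) and YY1 letters in NDUFS4 (chr5:53560389-53560688, plus strand). In NDUFS3 the first match is on the opposite strand.
NDUFS3: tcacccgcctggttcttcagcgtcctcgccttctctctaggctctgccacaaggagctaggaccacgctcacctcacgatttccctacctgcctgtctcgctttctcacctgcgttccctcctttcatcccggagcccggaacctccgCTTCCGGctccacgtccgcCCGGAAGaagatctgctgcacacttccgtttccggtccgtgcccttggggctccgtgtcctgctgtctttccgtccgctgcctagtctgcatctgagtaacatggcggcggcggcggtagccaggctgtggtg
NDUFA8: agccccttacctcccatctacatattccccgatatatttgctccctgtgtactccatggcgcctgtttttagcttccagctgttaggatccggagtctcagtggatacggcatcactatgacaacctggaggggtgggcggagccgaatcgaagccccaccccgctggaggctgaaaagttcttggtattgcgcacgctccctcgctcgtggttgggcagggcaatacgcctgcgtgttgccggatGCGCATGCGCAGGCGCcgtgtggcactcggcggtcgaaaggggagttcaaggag
NDUFS4: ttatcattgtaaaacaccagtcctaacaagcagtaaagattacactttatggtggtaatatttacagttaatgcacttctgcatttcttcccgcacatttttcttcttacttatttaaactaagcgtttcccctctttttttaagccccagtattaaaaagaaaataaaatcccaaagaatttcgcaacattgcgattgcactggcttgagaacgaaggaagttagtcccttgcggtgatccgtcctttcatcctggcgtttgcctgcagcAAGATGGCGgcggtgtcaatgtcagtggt
NDUFAF4: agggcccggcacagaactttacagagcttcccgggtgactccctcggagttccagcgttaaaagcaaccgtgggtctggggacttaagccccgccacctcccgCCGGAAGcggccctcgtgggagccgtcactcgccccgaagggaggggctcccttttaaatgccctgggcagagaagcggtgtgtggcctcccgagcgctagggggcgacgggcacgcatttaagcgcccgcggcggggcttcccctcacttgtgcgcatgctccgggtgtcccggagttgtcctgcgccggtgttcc

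Of these factors, NRF1, GABP, YY1 and ERR had genes among 12 listed regulators of mitochondrial biogenesis, while NF-Y had none. Of the 12, 3 rose and 4 fell. NRF1 itself averaged 16.7 ± 1.7 CPM in ICAM1-high, against 20.9 ± 1.7 CPM in ICAM1-low and fell by 0.32 ± 0.11 (adjusted p = 0.00791). GABPB1, the subunit of GABP that activates transcription, averaged 26.8 ± 2.6 CPM in ICAM1-high, against 50.8 ± 0.51 CPM in ICAM1-low and fell by 0.92 ± 0.08, while GABPA, its DNA-binding partner, and YY1 were not called. PPARGC1B, a coactivator, rose by 0.82 ± 0.11. With library size only, at most 1 of the 4 falls held. Under it the median of all genes tested moved by 0.17, beside falls of 0.32 in NRF1 and 0.92 in GABPB1. Without ICAM1-low replicate 2 the list had 1 rise and 3 falls, and with library size only 6 rises and 1 fall.

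Complex I also needs genes outside the NDUF family. Of the 7 subunits encoded by mitochondrial DNA, 0 rose and 5 fell with TMM scaling, with a median log2 fold change of -0.23, but with library size as the only scaling 2 rose and 2 fell. That scaling moved the median of all genes tested by 0.17, and relative to it the median of these 7 was -0.24 under both. MT-ND4, a proton-pumping core subunit, had 8492 and 8009 CPM in ICAM1-high, against 9817 and 9939 CPM in ICAM1-low, a fall of 0.26 ± 0.04 (adjusted p = 1.48e-08). MT-ND5 and MT-ND6 were not called. All mitochondrially encoded genes took 8.04% and 7.46% of counts in ICAM1-high, against 8.25% and 8.66% in ICAM1-low. Of 12 assembly factors with other names 3 rose and 3 fell, and without ICAM1-low replicate 1 the counts were 2 and 1, while without ICAM1-low replicate 2 they were 1 and 2, and with library size only 7 and 1. ACAD9, which binds NDUFAF1 in the membrane arm scaffold, rose by 0.64 ± 0.07 (adjusted p = 1.01e-11), and TMEM126A, which acts on the distal arm, fell by 0.45 ± 0.10.

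Genes of the other respiratory complexes also went both ways. Complex II had 2 genes that rose and 1 that fell of 8, with SDHA, its flavoprotein, at 184 and 200.5 CPM in ICAM1-high, against 122 and 128 CPM in ICAM1-low (log2 fold change 0.62 ± 0.05). SDHAF4, an assembly factor of complex II, fell by 0.57 ± 0.18. The falls numbered 2 without either ICAM1-high library and 0 with library size only, and there was 1 rise without ICAM1-low replicate 2. In complex III 2 of 9 rose and 4 fell, with UQCRC1 at 0.30 and CYC1, its cytochrome c1, at -0.35, and there was 1 rise without ICAM1-low replicate 2, while library size only gave 3 rises and 2 falls. In complex IV 1 of 10 rose and 6 fell with TMM scaling, but 2 fell without ICAM1-low replicate 1, 0 rose without ICAM1-low replicate 2, and 4 rose and 1 fell with library size only. Its structural subunits COX7B and COX6C were at 0.27 and -0.39. In complex V 6 of 16 rose and 2 fell, with ATP5IF1, the inhibitor of the synthase, at 0.58 and ATP5PD, a stalk subunit, at -0.32. Falls numbered 1 without either ICAM1-low library, and with library size only 11 rose and 1 fell. Differences between these lists and complex I were not tested.

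**Figure D4:**
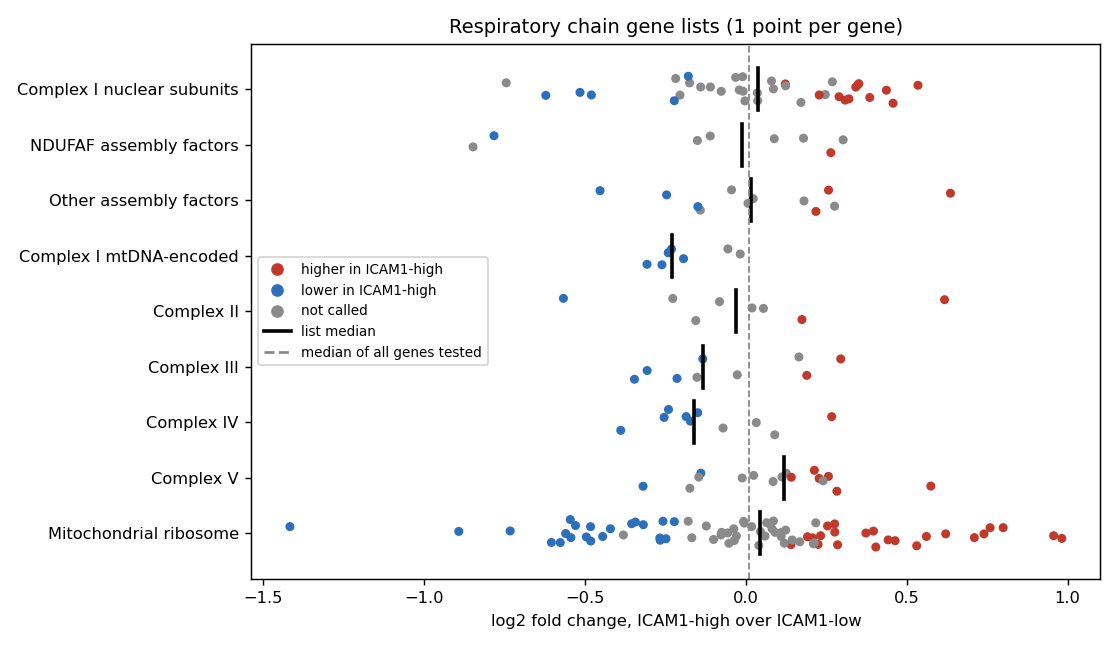
Each point is a gene, placed by its log2 fold change of ICAM1-high over ICAM1-low with TMM scaling, with the list median as a bar and the median of all genes tested, 0.01, as a dashed line. List medians run from -0.23 for the mitochondrially encoded subunits to 0.12 for complex V, and the points of every nuclear list lie on both sides of 0.

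Of 77 tested mitochondrial ribosomal protein genes, 23 rose and 22 fell, with MRPL3 at 0.62 and MRPS16 at -0.73, but library size only gave 40 rises and 16 falls. Among 12 markers of mitochondrial content 4 rose and 4 fell, and the channels VDAC1 and VDAC2 moved apart, at 0.46 and -0.65. The iron-sulfur cluster genes, which supply the cofactors of the core subunits, had 3 rises and 4 falls among 13 tested. With library size only these counts were 6 and 4 for the content markers and 4 and 2 for the cluster genes. HSPA9, the mitochondrial HSP70 chaperone, had 685 and 674 CPM in ICAM1-high, against 1279 and 1266 CPM in ICAM1-low, a fall of 0.90 ± 0.04, and FDXR, which supplies electrons for cluster synthesis, rose by 0.50 ± 0.09.

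The fold changes of the subunits were set beside those of other protein-coding genes within 2 Mb on the same chromosome, leaving out overlapping genes. The median fold change of the neighbours was above 0 for 10 of the 12 subunits that rose and below 0 for 5 of the 5 that fell. Over all protein-coding genes, 66.2% of those called higher had a neighbour median above 0 and 57.7% of those called lower had one below 0. NDUFS6, with the largest rise, had 21 neighbours with a median log2 fold change of 0.69, and NDUFV3 had 36 with a median of 0.49. NDUFS4 had 13 with a median of -0.21, and NDUFA10 had 33 with a median of -0.23. For the other 3 that fell, NDUFA6, NDUFB8 and NDUFA1, the neighbour medians were close to 0, at -0.018, -0.016 and -0.015. The 2 that rose beside a neighbour median below 0 were NDUFA8, at -0.05, and NDUFA9, at -0.02. NDUFC1, which was not called, had a log2 fold change of 0.27 beside a neighbour median of -0.62. Across the 37 subunits Pearson's r was 0.35 and Spearman's rho 0.38, beside 0.13 and 0.23 over 13309 protein-coding genes, as a description, since genes share libraries and neighbours.

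**Figure D5:**
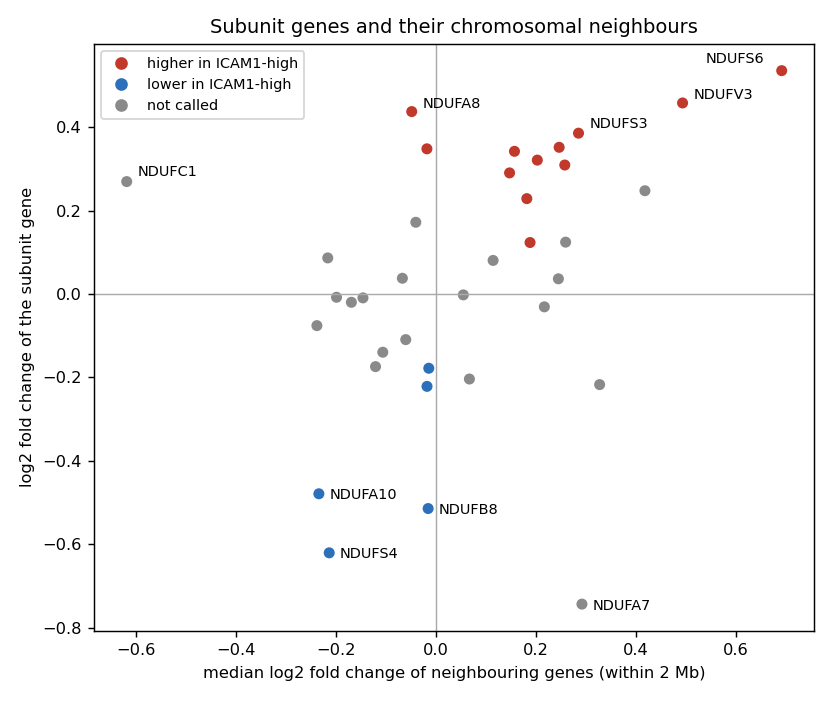
Each point is 1 of the 37 subunits, with the median log2 fold change of its neighbours within 2 Mb on the horizontal axis and its own log2 fold change on the vertical axis. The 12 subunits called higher lie mostly to the right, with NDUFS6 at 0.69 and NDUFV3 at 0.49, the 5 called lower lie left of 0, 3 of them close to it at -0.018 to -0.015, and NDUFC1, not called, lies far left at -0.62.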

How the data were processed

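Messenger RNA libraries of 4 sorted A549 samples were analysed, 2 ICAM1-high and 2 ICAM1-low, all grouped by their labels. The authors deposited a single table of raw counts per gene. FastQC 0.10.1 and the build GRCh38 are named per the submitters' processing notes, whereas aligner, counting program and strand setting were not given in the sources used here. Without strand, reads of a gene and of an overlapping or antisense gene cannot be told apart. The NRF1 letters searched in promoters were shortened by 1 base after a first search. Symbols came from a list of gene names that held 58207 of the 58735 identifiers, and from GENCODE 29 for the rest. Gene types and positions came from GENCODE 29, which held all 58735 identifiers.

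Libraries were scaled by TMM and genes filtered by filterByExpr (minimum count 10, minimum total 15), and the test was the robust quasi-likelihood test of edgeR 4.0.16 (R 4.3.3). Adjusted p-values are Benjamini-Hochberg over the 16250 genes tested, and a call is one under 0.05. Of the 48 members, 47 passed the filter. Values of 1 core subunit are not reported here, and it remains in counts, sums and medians. Errors of fold changes are standard errors, and those of levels are SDs of 2 libraries. TMM factors were 1.06 and 1.07 in ICAM1-high and 0.939 and 0.944 in ICAM1-low, the common dispersion was 0.00133, and a floor of 3 counts lies at 0.161 to 0.196 CPM per library. It covers counting error only. The procedure was tested on simulated data.

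The members and lists were chosen with earlier results of these data known, and no test was made over a list. Values per library are given for ICAM1, the other core subunits, NDUFA4, NDUFA4L2, the assembly factors and, in each module, the called members with the largest rise and fall. In the other lists the called member with the smallest adjusted p in each direction is named. Other genes named were chosen after their values were seen. Alternatives were DESeq2 size factors, library size only, other filters, DESeq2 1.42.0, limma-voom (limma 3.58.1), a replicate block, omission of mitochondrially encoded and ribosomal protein genes, an adjusted p under 0.01 and omission of each library. Added after seeing the data were the omission of members sharing coding bases with other genes and the removal of the trend on transcript GC content. With 1 library left in a subset, its spread is taken from the other subset.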

Additional observations from a re-analysis of the deposited data

How the results depend on the processing

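With library size only, 23 subunits were called higher and 2 lower and 4 assembly factors higher, the medians were 0.21 for subunits and 0.16 for assembly factors, and NDUFS1 and NDUFAB1 turned to 0.16 and 0.17. Over all 16250 genes tested, that scaling called 6735 higher and 3124 lower, against 4935 and 4771 with TMM. It made 68.3% of all calls higher ones, beside 50.8% with TMM. DESeq2 and an adjusted p under 0.01 each called 9 subunits higher and 2 lower, and 0 assembly factors higher. Over all genes tested, DESeq2 called 3785 higher and 3774 lower, and the stricter threshold 4184 and 4059. With no filter on low counts 9 subunits were higher and 6 lower. Assembly factors called lower numbered 2 with DESeq2 size factors, with no filter, with a mean of at least 1 CPM and with the GC trend removed, NDUFAF8 being added, and the assembly factor median was 0.0020 with that mean and 0.039 with the GC trend removed, where NDUFV1 turned to -0.031 and NDUFS8, NDUFB7 and NDUFAF3 were no longer called. Without members sharing coding bases, 0 assembly factors were higher, since NDUFAF3 is left out, and their median was -0.11. Leaving out single libraries gave 9 to 11 subunits higher and 3 to 4 lower, the 3 without ICAM1-low replicate 1, 0 to 1 assembly factors higher and 1 to 2 lower, subunit medians of 0.01 to 0.07 and assembly factor medians of -0.096 to 0.075. The first shift follows the scaling itself, and the cause of the others was not tested. Calls held under all 15 alternatives for 7 of 12 subunits called higher, 2 of 5 called lower and NDUFAF4.

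The replicate numbers were not shown to pair the samples: same-numbered libraries had deviations correlated at 0.04. With the replicate block, 13 subunits were called higher and 6 lower, and 1 assembly factor higher and 2 lower, and over all genes 4976 higher and 4836 lower. NDUFA7, NDUFA13, NDUFV2, NDUFB8 and NDUFA4L2 had at most 92 counts in any library, and their intervals are wide, from -1.88 to 0.40 in NDUFA7, so smaller differences in them were not detectable at this depth.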
